A study of Mus musculus with 7 samples.

Results

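The unfolded protein response and the integrated stress response were described here through 40 genes, in sensory ganglia of mice whose sciatic nerve had been injured at either of 2 times of day. The genes were selected by symbol from the deposited table, and 41 of its 54309 rows carried one of these symbols. Ddit3 had 2 rows, of which one identifier (ENSMUSG00000116429) was listed at 0 in all 7 samples, and the other was used. All 40 members passed the filter for testing, a mean of at least 1 TPM (transcript abundance corrected for length and scaled to the same total in each sample) over the 7 samples. Per the labels the animals were male C57bl/6 mice aged 6 to 8 weeks. The injury was placed at ZT20 (4 samples) or ZT8 (3 samples), where ZT is Zeitgeber time, counted in hours from lights on. The L4-6 ganglia were collected 72 h after injury, dissociated with dispase, collagenase and papain, and enriched for neurons on an albumin gradient. Both groups had been injured, and uninjured ganglia were not analysed here. The clock times of injury and of dissection coincided within each group, so their effects cannot be told apart. The labels do not say whether samples came from separate or pooled animals, so p-values measure only the spread between these samples.

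When unfolded proteins accumulate in the endoplasmic reticulum (ER), the membrane sensors PERK, IRE1 and ATF6 signal to the nucleus. PERK and its sister kinases phosphorylate the initiation factor eIF2, which lowers general translation but favours translation of the transcription factor ATF4, a branch known as the integrated stress response. IRE1 splices the Xbp1 mRNA so that it encodes an active factor, and ATF6 is cut by Golgi proteases to free its own factor domain. In sensory neurons these branches are known to respond to axon injury. The deposited values are per gene, so spliced and unspliced Xbp1 mRNA could not be separated, and neither phosphorylation, cleavage nor translation was measured.

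Some libraries stood apart before any member was compared. The number of genes above 0 TPM was 24192 to 25238 at ZT20 and 22541, 18297 and 22973 in ZT8 replicates 1 to 3. Depth could not be read from TPM. ZT20 replicates 3 and 4 went against the male label: the Y-linked gene Ddx3y was listed at 0 in both, while Xist, transcribed from the inactive X chromosome of females, was at 2.21 and 2.30 TPM. ZT20 replicate 2 held both (11.7 TPM of Ddx3y and 1.08 TPM of Xist). The library names in the labels were numbers at ZT20 and letters at ZT8, and a batch behind them, if any, and the group cannot be told apart. All 10 neuronal markers were present, with a summed level of 17796 to 22731 TPM at ZT20 and 13725 to 20806 TPM at ZT8, and 3 of the 10 were higher at ZT20. Satellite glia markers summed to 6958 to 8431 TPM at ZT20 and 11757 to 14449.5 TPM at ZT8, with 2 of 5 lower at ZT20 and 0 higher. Most of that sum was Apoe, at 6261 to 7615 TPM at ZT20 and 10623 to 13557 TPM at ZT8. Fabp7 did not overlap between the groups either, whereas Cdh19, Kcnj10 and Glul did. The 7 macrophage markers summed to 103 to 148 TPM at ZT20 and 158 to 359 TPM at ZT8 (1 lower, 0 higher), and 7 early genes known to respond to dissociation, Fos and Junb among them, to 722 to 1094 TPM at ZT20 and 1100.0 to 1467 TPM at ZT8 (2 lower, 0 higher). These sums did not overlap between the groups, and their part in the results was not tested. The 8 plasma cell markers summed to 109 to 299 TPM at ZT20 and 371 to 721 TPM at ZT8. Of the defining ones, Jchain was at 10.2, 176, 157 and 4.18 TPM across ZT20 replicates 1 to 4 and 560.4, 195 and 317 TPM across ZT8 replicates 1 to 3, and Tnfrsf17 was listed at 0 in all ZT8 samples. In such bulk samples fewer cells of a type and less RNA per cell cannot be told apart.

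Of the 40 members, 8 differed between the times of day, 6 with more transcript at ZT20 and 2 with less. The higher ones were the translation factor phosphatase subunit Ppp1r15b, the degradation adaptor Sel1l, the sensor Atf6, the translocon subunit Ssr1, the stress factor Atf5 and the chaperone Canx, by 1.72-fold to 2.41-fold. The lower ones were the serine synthesis enzyme Phgdh and the signal peptidase subunit Sec11c, 1.64-fold and 1.89-fold lower at ZT20. Xbp1, Ddit3, Herpud1, Manf and Pdia6 did not pass, and their groups overlapped. Each gene was tested with limma on log2(TPM + 1) over all 7 samples, with Benjamini-Hochberg adjustment over 14800 genes. A gene was called when the adjusted p-value was under 0.05. Differences are ZT20 minus ZT8 on that scale, and folds derive from it, which understates the change of low genes. Of all tested genes, 12.8% were called higher and 3.61% lower at ZT20, against 6 and 2 of the 40 members (15% and 5%), so the share called was close to the background. The median difference of the members was 0.31 and that of all tested genes 0.23, and 28 of 40 members (70%, of which 7 turned negative under median-ratio scaling) and 66.4% of all genes had a positive difference. The groups did not overlap for 12 members that were higher at ZT20 and 5 that were lower (30% and 12.5%), against 24.5% and 8.72% of all tested genes. Median-ratio scaling, which lowered the median of all genes to 0.019, called 3 members higher and 7 lower, against 1088 and 1254 of all 14800 genes. Quantile normalization called 3 members higher and 5 lower, against 1023 and 814 of all genes.

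**Figure D1:**
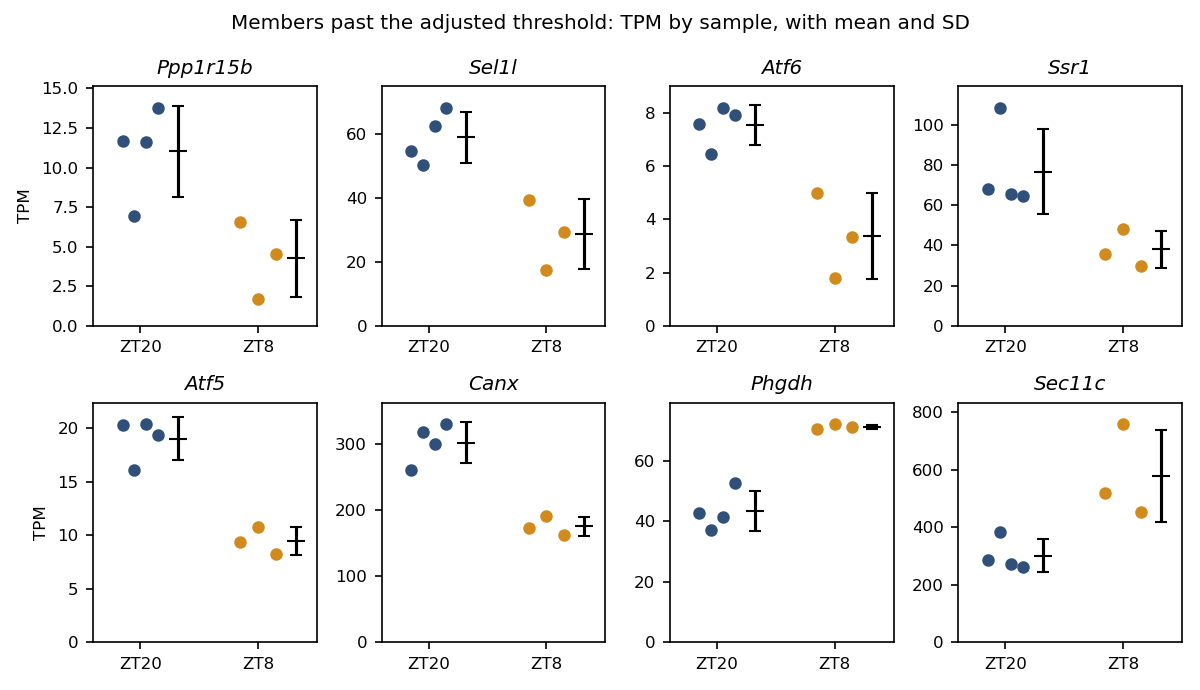
TPM (vertical axes, from 0) of the 8 members past the adjusted threshold, with 1 point per sample, the 4 ZT20 samples in blue and the 3 ZT8 samples in orange, each in replicate order from left to right, and a black bar for mean and SD. In each of the 8 panels all ZT20 points lie on one side of all ZT8 points, above them for 6 members and below them for Phgdh and Sec11c.

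In the ATF4 branch, 2 of 9 regulators were called, both higher at ZT20, and 8 of 9 had a positive difference, with Ddit3 turning negative under median-ratio scaling. Of all tested genes, 12.8% were called higher, 3.61% were called lower and 66.4% had a positive difference. These shares also apply beside the counts of the other role groups, and no role group was tested as a set. Atf4 encodes the central factor of the branch. It was at 82.7, 74.2, 77.9 and 74.7 TPM across ZT20 replicates 1 to 4 and 54.0, 66.8 and 59.9 TPM across ZT8 replicates 1 to 3. All 4 ZT20 samples were above all 3 ZT8 samples, but the log2 difference of 0.36 (standard error 0.12) did not pass (limma adjusted p = 0.0737). Under median-ratio scaling the Atf4 difference was 0.11 (limma adjusted p = 0.601). Atf5 (ENSMUSG00000038539), a related factor of the same family that is also controlled through eIF2, was at 20.3, 16.0, 20.3 and 19.3 TPM across ZT20 replicates 1 to 4 and 9.40, 10.8 and 8.20 TPM across ZT8 replicates 1 to 3. The lowest ZT20 sample was above the highest ZT8 sample, with group means of 19.0 ± 2.02 TPM (SD, n = 4) against 9.46 ± 1.29 TPM (SD, n = 3). The log2 difference was 0.94 (standard error 0.17, 1.91-fold, limma adjusted p = 0.0114). In GENCODE M21 Atf5 overlaps Il4i1 and Nup62 on the opposite strand, and the labelled library kit is not stated to keep strand, so reads of these genes may not have been told apart. Among the called members, Ppp1r15b and Sec11c also overlap a gene model on the opposite strand.

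Trib3, Chac1, Ddit4, Ddit3 and Sesn2, targets of the branch, had positive differences that did not pass, and Ddit3 turned negative under median-ratio scaling. Under that scaling the log2 differences were 0.46 for Trib3, 0.14 for Chac1, 0.054 for Ddit4 and 0.60 for Sesn2. That of Ddit4 was 0.12 without ZT20 replicates 3 and 4. Trib3, a pseudokinase induced by ATF4 and CHOP, was at 4.81, 6.26, 6.09 and 7.49 TPM at ZT20 and 3.16, 3.21 and 4.11 TPM at ZT8, in replicate order. Chac1, an enzyme that degrades glutathione, was at 22.1, 19.0, 21.6 and 24.8 TPM at ZT20 and 15.9, 15.5 and 18.2 TPM at ZT8. In both genes the groups did not overlap, with log2 differences of 0.67 and 0.38 (limma adjusted p = 0.0671 and 0.120). Ddit4, an inhibitor of mTORC1, was at 44.6, 45.2, 51.1 and 65.6 TPM at ZT20 and 40.2, 43.1 and 40.5 TPM at ZT8, where ZT20 replicate 4 was the highest and the lowest ZT20 sample was only just above the highest ZT8 sample (log2 difference 0.30, limma adjusted p = 0.216). Ddit3, which encodes the factor CHOP, was at 72.4, 65.6, 70.1 and 60.9 TPM at ZT20 and 56.8, 54.3 and 63.6 TPM at ZT8. In GENCODE M21 Ddit3 likewise overlaps other genes, Mars among them. ZT20 replicate 4 was below ZT8 replicate 3, so the groups overlapped, and the log2 difference of 0.21 (limma adjusted p = 0.266) became −0.042 under median-ratio scaling. Sesn2, a sestrin that restrains mTORC1 when leucine is scarce, ranged over 4.36 to 10.4 TPM at ZT20 and 1.45 to 5.89 TPM at ZT8 (log2 difference 0.80, limma adjusted p = 0.192).

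The phosphatase subunits that reverse eIF2 phosphorylation gave different values. Ppp1r15b (ENSMUSG00000046062), the constitutive subunit (CReP), was at 11.7, 6.96, 11.6 and 13.8 TPM across ZT20 replicates 1 to 4 and 6.57, 1.73 and 4.55 TPM across ZT8 replicates 1 to 3. All ZT20 samples were above all ZT8 samples, although ZT20 replicate 2 was close to ZT8 replicate 1, and ZT8 replicate 2 was the lowest. The log2 difference of 1.27 (standard error 0.37, 2.41-fold) passed narrowly (limma adjusted p = 0.0482). Ppp1r15a, the stress-induced subunit (GADD34), ranged over 60.1 to 94.8 TPM at ZT20 and 72.3 to 84.2 TPM at ZT8, with a log2 difference of −0.033 (limma adjusted p = 0.902). The sign of that small difference changed when either ZT20 replicate 2 or ZT8 replicate 1 was left out. The difference between the subunits was not tested.

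Of the 4 amino acid enzymes in the ATF4 branch, 1 was called, and it was lower at ZT20. Phgdh (ENSMUSG00000053398) catalyses the entry step of serine synthesis from glycolysis. It was at 42.6, 37.0, 41.3 and 52.8 TPM across ZT20 replicates 1 to 4 and 70.6, 72.0 and 71.0 TPM across ZT8 replicates 1 to 3. The ZT8 samples lay within a narrow range and every ZT20 sample was below them, with group means of 43.4 ± 6.66 TPM (SD, n = 4) against 71.2 ± 0.758 TPM (SD, n = 3). The log2 difference was −0.71 (standard error 0.14, 1.64-fold lower, limma adjusted p = 0.0153). Psat1, the next enzyme of the pathway, was at 33.9, 35.5, 37.8 and 41.0 TPM at ZT20 and 43.5, 46.6 and 48.2 TPM at ZT8. Its groups did not overlap either, but the log2 difference of −0.31 did not pass (limma adjusted p = 0.123), whereas it passed under median-ratio scaling and quantile normalization. Asns, asparagine synthetase, ranged over 323 to 389.7 TPM at ZT20 and 288 to 342 TPM at ZT8, and Shmt2, the mitochondrial serine hydroxymethyltransferase, over 19.4 to 24.6 TPM at ZT20 and 14.9 to 22.4 TPM at ZT8. Neither log2 difference, 0.17 for Asns and 0.22 for Shmt2, passed (limma adjusted p = 0.318 and 0.425), and both signs changed under median-ratio scaling, Shmt2 also under quantile normalization. The lower Phgdh values at ZT20 came from the samples with the lower satellite glia marker sums (6958 to 8431 TPM at ZT20 and 11757 to 14449.5 TPM at ZT8). Apoe made up most of these sums. Of the other satellite glia markers, Fabp7 was also lower without overlap, while Cdh19, Kcnj10 and Glul overlapped between the groups. The part of glial RNA in these differences was not tested.

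Promoters of the branch were read because ATF4 acts through a composite C/EBP-ATF response element. The RefSeq promoter table (GRCm38.p6) held 34 of the 40 members among 27025 genes, and Atf6, Ppp1r15b, Manf, Hyou1, Derl1 and Sec11c were not in it. The 250 bases before each start site were searched on both strands, and coordinates are those of that table, not of the authors' build. The core TGATG, any 1 base, AA was found in 3 of 34 members (8.82%), Asns, Chac1 and Herpud1, and in 3.91% of all genes. For Asns and Chac1, which were grouped here under the ATF4 branch, the element and 15 bases on each side are shown. They are given on the gene's strand, 5′ to 3′, with the core in capitals.
Asns (chr6:7693210-7693247, minus strand): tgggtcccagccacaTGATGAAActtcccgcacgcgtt
Chac1 (chr2:119351034-119351071, plus strand): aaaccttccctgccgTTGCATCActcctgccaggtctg
The match lay 23 to 16 bases before the Asns start and 193 to 186 bases before the Chac1 start, in Chac1 on the other strand. Neither gene passed between the times of day, and Atf5, which passed, held no match in this window.

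All 7 sensors, factors and processing proteases had a positive difference, although Xbp1 turned negative under median-ratio scaling, and 1 of the 7 was called. Among all tested genes 66.4% had a positive difference and 12.8% were called higher. With the neuronal marker score as a covariate 4 of the 7 were negative, Crebrf at −0.40, Ern1 at −0.13, Mbtps1 at −0.094 and Xbp1 at −0.60. Atf6 (ENSMUSG00000026663), the membrane sensor that is itself the precursor of a transcription factor, was at 7.57, 6.47, 8.20 and 7.94 TPM across ZT20 replicates 1 to 4 and 5.00, 1.80 and 3.34 TPM across ZT8 replicates 1 to 3. The lowest ZT20 sample was above the highest ZT8 sample, and ZT8 replicate 2 was the lowest. The log2 difference was 1.03 (standard error 0.28, 2.04-fold, limma adjusted p = 0.0383). The Golgi proteases that release the ATF6 factor domain are encoded by Mbtps1 and Mbtps2. Mbtps1 was at 23.5, 22.8, 27.7 and 33.2 TPM at ZT20 and 22.5, 10.1 and 17.6 TPM at ZT8, without overlap (log2 difference 0.70, limma adjusted p = 0.0983). Mbtps2 ranged over 5.81 to 8.82 TPM at ZT20 and 4.32 to 5.94 TPM at ZT8, and its groups overlapped because ZT8 replicate 2 was above ZT20 replicate 1 (log2 difference 0.47, limma adjusted p = 0.176). Creb3l2, another ER-bound factor cut by the same proteases, was at 3.28, 3.40, 4.84 and 5.78 TPM at ZT20 and 1.89, 3.17 and 2.10 TPM at ZT8, without overlap (log2 difference 0.64, limma adjusted p = 0.124). With correction for transcript length and GC content, the signs of Creb3l2 (−0.018), Crebrf (−0.12), Ern1 (−0.12) and Xbp1 (−0.019) became negative. Mbtps1 was then at 0.052 in place of 0.70, Mbtps2 at 0.091 in place of 0.47 and Atf6 at 0.39 in place of 1.03.

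In the IRE1 branch neither the sensor nor the factor was called. Ern1, which encodes IRE1, was the lowest member at 1.37 to 2.39 TPM at ZT20 and 0.235 to 1.73 TPM at ZT8 (log2 difference 0.54, limma adjusted p = 0.279). Xbp1 was at 159, 190.2, 209.8 and 227 TPM across ZT20 replicates 1 to 4 and 227, 132 and 225 TPM across ZT8 replicates 1 to 3. Its highest values, in ZT20 replicate 4 and ZT8 replicates 1 and 3, were nearly equal, and ZT8 replicate 2 was the lowest of all 7 samples. The group means of 197 ± 29.1 TPM (SD, n = 4) against 195 ± 54.3 TPM (SD, n = 3) gave a log2 difference of 0.044 (standard error 0.21, limma adjusted p = 0.898). Without ZT8 replicate 2 the Xbp1 difference was −0.21, and under median-ratio scaling −0.21, so it has no stable sign. Crebrf, a nuclear factor known as a regulator of another ER-bound CREB family factor, ranged over 5.39 to 9.66 TPM at ZT20 and 3.48 to 6.85 TPM at ZT8 (log2 difference 0.44, limma adjusted p = 0.308).

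**Figure D2:**
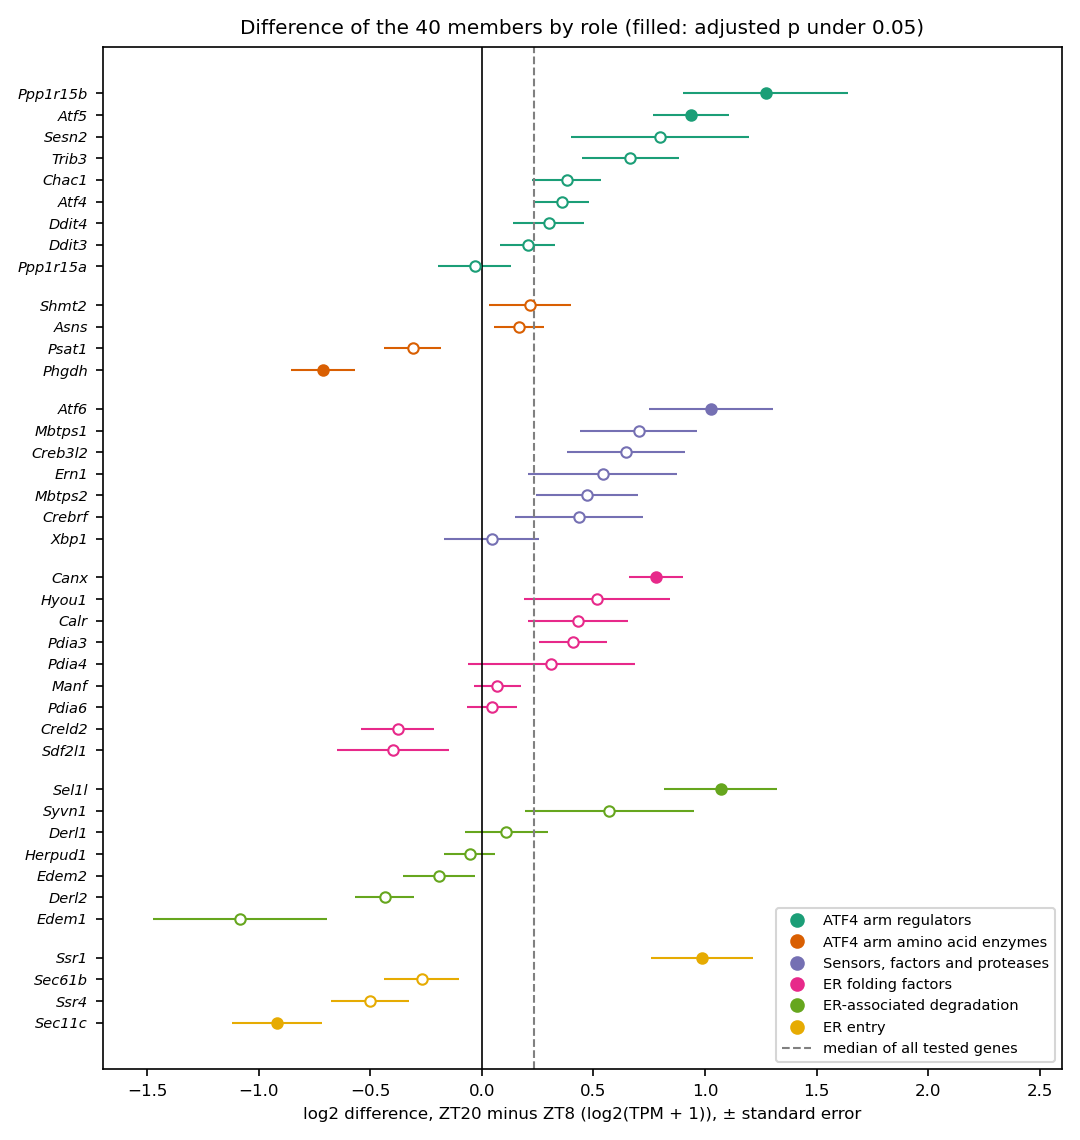
Log2 difference of log2(TPM + 1), ZT20 minus ZT8 (horizontal axis), with its limma standard error, for the 40 members grouped and coloured by role, where filled points passed an adjusted p-value of 0.05. All 7 sensors, factors and proteases lie right of 0 (Xbp1 left of it under median-ratio scaling), 3 of 4 ER entry genes lie left of it, and the dashed line marks the median of all tested genes, 0.23.

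Among 9 folding factors of the ER lumen and membrane, 1 was called. Canx (ENSMUSG00000020368), the membrane-bound lectin chaperone calnexin, was at 259.8, 318, 299 and 329 TPM across ZT20 replicates 1 to 4 and 173, 190.1 and 162 TPM across ZT8 replicates 1 to 3. Every ZT20 sample was well above every ZT8 sample, with group means of 302 ± 30.4 TPM (SD, n = 4) against 175 ± 14.2 TPM (SD, n = 3). The log2 difference of 0.78 (standard error 0.12, 1.72-fold) had the lowest adjusted p-value of the 40 members (limma, 0.00734). Its partners in the calnexin cycle did not pass. Calr, the soluble lectin chaperone calreticulin, ranged over 147 to 163 TPM at ZT20 and 73.8 to 154 TPM at ZT8, with ZT8 replicate 2 far below the rest (log2 difference 0.43, limma adjusted p = 0.209). Pdia3, the disulfide isomerase that works with both lectins and the most abundant member by TPM at ZT20, ranged over 581 to 726 TPM at ZT20 and 419 to 625 TPM at ZT8 (log2 difference 0.41, limma adjusted p = 0.0961). Without ZT8 replicate 1 Pdia3 passed, at 0.57 (limma adjusted p = 0.0402). It was at 0.16 under median-ratio scaling and 0.13 with the neuronal marker score as a covariate (limma adjusted p = 0.431 and 0.724).

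The other lumenal factors, several of them classic ATF6 targets, had differences of both signs. Pdia4 and Pdia6, further disulfide isomerases, differed by 0.31 and 0.046 on the log2 scale, with limma adjusted p-values of 0.579 and 0.794. Pdia4 ranged over 38.4 to 55.1 TPM at ZT20 and 17.9 to 65.2 TPM at ZT8, and its sign changed without ZT8 replicate 2. Hyou1, a large chaperone that serves as a nucleotide exchange factor, ranged over 6.27 to 11.3 TPM at ZT20 and 2.99 to 7.86 TPM at ZT8 (log2 difference 0.52, limma adjusted p = 0.291). Manf, a secreted ER stress protein with neurotrophic activity, ranged over 129.6 to 142 TPM at ZT20 and 118 to 138 TPM at ZT8 (log2 difference 0.070, limma adjusted p = 0.672). Sdf2l1 and Creld2, small ER proteins strongly induced by ER stress, had negative differences, −0.40 and −0.38 (limma adjusted p = 0.292 and 0.140). Sdf2l1 ranged over 63.8 to 71.9 TPM at ZT20 and 54.7 to 128 TPM at ZT8, and without ZT8 replicate 3, its lowest sample, the difference was −0.74 (limma adjusted p = 0.0294). Creld2 ranged over 23.1 to 27.1 TPM at ZT20 and 25.9 to 37.5 TPM at ZT8, and without ZT8 replicate 2 it was −0.53 (limma adjusted p = 0.0237). It also passed under median-ratio scaling and quantile normalization.

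The ER stress element, the site through which ATF6 with NF-Y acts, was searched as CCAAT, any 9 bases, CCACG. It was found in 5 of 34 members (14.7%), Calr, Canx, Creld2, Pdia6 and Syvn1, and in 0.13% of all 27025 genes. The spacing was fixed by the search, and the differences of the 5 genes were not compared by a test. The 5 are shown with the element in capitals and 15 bases on each side.
Canx (chr11:50325785-50325833, minus strand): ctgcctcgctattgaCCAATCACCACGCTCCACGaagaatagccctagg
Calr (chr8:84847060-84847108, minus strand): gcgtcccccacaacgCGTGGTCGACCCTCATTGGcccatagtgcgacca
Pdia6 (chr12:17266476-17266524, plus strand): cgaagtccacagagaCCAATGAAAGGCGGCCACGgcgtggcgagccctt
Creld2 (chr15:88819505-88819553, plus strand): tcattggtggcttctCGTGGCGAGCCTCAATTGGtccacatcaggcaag
Syvn1 (chr19:6046517-6046565, plus strand): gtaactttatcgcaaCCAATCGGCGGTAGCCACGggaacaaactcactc
In Calr and Creld2 the element lies on the other strand and reads as CGTGG, 9 bases, ATTGG. It starts 162 bases before the start site in Calr, 145 in Canx, 126 in Creld2, 98 in Pdia6 and 44 in Syvn1. The log2 differences of these 5 genes ran from −0.38 for Creld2 to 0.78 for Canx. The core of the UPR element, TGACGTG, was found in 0 of 34 members and in 1.85% of all genes. A match describes these letters only.

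In ER-associated degradation, which returns misfolded proteins to the cytosol for the proteasome, 1 of 7 members was called. Sel1l (ENSMUSG00000020964), the adaptor of the HRD1 ubiquitin ligase complex, was at 54.7, 50.2, 62.6 and 68.2 TPM across ZT20 replicates 1 to 4 and 39.4, 17.5 and 29.5 TPM across ZT8 replicates 1 to 3. The groups did not overlap, and ZT8 replicate 2 was the lowest. Group means were 58.9 ± 8.03 TPM (SD, n = 4) against 28.8 ± 11.0 TPM (SD, n = 3), a log2 difference of 1.07 (standard error 0.25, 2.10-fold, limma adjusted p = 0.0260). Syvn1, the ligase HRD1 itself, ranged over 27.4 to 50.8 TPM at ZT20 and 13.3 to 43.1 TPM at ZT8, and ZT20 replicate 2 fell below 2 of the ZT8 samples (log2 difference 0.57, limma adjusted p = 0.311). Herpud1, which recruits factors to that ligase, ranged over 151 to 178 TPM at ZT20 and 158 to 187 TPM at ZT8 (log2 difference −0.054, limma adjusted p = 0.764). The second form of the ER stress element, ATTGG, any 1 base, CCACG, which shares its half-sites with the first, occurred in 1 of 34 members (2.94%) and in 0.037% of all genes. That member was Herpud1, and the site is shown with the element in capitals.
Herpud1 (chr8:94386362-94386402, plus strand): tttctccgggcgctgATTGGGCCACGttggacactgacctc
It lies 52 to 42 bases before the start, and the C/EBP-ATF core of Herpud1 lies 112 to 105 bases before it, so the matches do not overlap.

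The channel and mannosidase-like members of the degradation route did not pass, and 3 of these 4 had negative differences, as did Derl1, the other, under median-ratio scaling. Derl2, a derlin of the retrotranslocation channel, was at 64.5, 83.0, 68.0 and 70.6 TPM at ZT20 and 94.2, 107 and 89.4 TPM at ZT8. All ZT20 samples were below all ZT8 samples, with a log2 difference of −0.44 (limma adjusted p = 0.0556). It passed under median-ratio scaling (−0.68, limma adjusted p = 0.0243) and without ZT20 replicate 2 (−0.51, limma adjusted p = 0.0442). Derl1, its paralog, ranged over 52.9 to 71.1 TPM at ZT20 and 44.6 to 68.2 TPM at ZT8 (log2 difference 0.11, limma adjusted p = 0.704). Edem1, which marks mannose-trimmed glycoproteins for degradation, was at 4.41, 12.5, 14.2 and 10.8 TPM at ZT20 and 25.0, 13.9 and 29.4 TPM at ZT8. ZT20 replicate 1 was the lowest and ZT8 replicate 2 fell within the ZT20 range, and the log2 difference of −1.08 (standard error 0.39) did not pass (limma adjusted p = 0.0885). Without ZT8 replicate 2 it did, at −1.39 (limma adjusted p = 0.0470), and it also passed under median-ratio scaling and quantile normalization, whereas with the plasma cell marker covariate it was −0.47 (limma adjusted p = 0.659). Edem2, a related protein, ranged over 33.7 to 36.5 TPM at ZT20 and 31.9 to 48.6 TPM at ZT8 (log2 difference −0.19, limma adjusted p = 0.419), and its difference was −0.057 without ZT8 replicate 1 and −0.35 without ZT8 replicate 2.

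The 4 genes of protein entry into the ER included 1 called in each direction. Sec11c (ENSMUSG00000024516), a catalytic subunit of the signal peptidase, was at 285, 385, 273 and 263 TPM across ZT20 replicates 1 to 4 and 521, 759 and 455 TPM across ZT8 replicates 1 to 3. Every ZT8 sample was above every ZT20 sample, and ZT8 replicate 2 was the highest. Group means were 302 ± 56.5 TPM (SD, n = 4) against 578 ± 159.6 TPM (SD, n = 3), a log2 difference of −0.92 (standard error 0.20, 1.89-fold lower at ZT20, limma adjusted p = 0.0203). Ssr1 (ENSMUSG00000021427), the alpha subunit of the translocon-associated protein complex, was at 67.9, 108, 65.6 and 64.5 TPM across ZT20 replicates 1 to 4 and 35.8, 48.3 and 29.9 TPM across ZT8 replicates 1 to 3. All ZT20 samples were above all ZT8 samples, and ZT20 replicate 2 stood far above the other ZT20 samples. The log2 difference was 0.99 (standard error 0.23, 1.98-fold, limma adjusted p = 0.0245). Ssr4, the delta subunit of the same complex, was at 108, 117, 95.5 and 84.3 TPM at ZT20 and 125, 183 and 126 TPM at ZT8. All its ZT20 samples were below all ZT8 samples, with a log2 difference of −0.50 (limma adjusted p = 0.0819), and it passed under median-ratio scaling (−0.75, limma adjusted p = 0.0464). The remaining subunits, looked up after these values were seen, were Ssr2 at −0.35 and Ssr3 at 0.15 on the log2 scale (limma adjusted p = 0.0542 and 0.482). Sec61b, a small subunit of the translocon channel, ranged over 73.4 to 103 TPM at ZT20 and 87.7 to 125 TPM at ZT8 (log2 difference −0.27, limma adjusted p = 0.283).

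Plasma cells are known for high levels of ER entry and folding genes, and 1 of their 4 tested markers, Mzb1, was called lower at ZT20, as were Phgdh and Sec11c. Mzb1 was at 1.03, 9.28, 8.51 and 0 TPM across ZT20 replicates 1 to 4 and 44.2, 17.9 and 23.9 TPM across ZT8 replicates 1 to 3. Slamf7 was at 1.11, 2.80, 3.46 and 1.01 TPM at ZT20 and 12.8, 4.76 and 4.65 TPM at ZT8, and Pou2af1 at 0.0329, 1.13, 0.528 and 0.132 TPM at ZT20 and 1.97, 1.95 and 1.24 TPM at ZT8. Jchain, Mzb1, Slamf7 and Pou2af1 were thus lower in every ZT20 sample than in any ZT8 sample. Sdc1 overlapped: it was at 96.1, 109, 94.5 and 122 TPM at ZT20 and 101, 151 and 75.7 TPM at ZT8, and made up most of the marker sum in ZT20 replicates 1 and 4. Irf4 and Prdm1 were under 1 TPM in all 7 samples. With the plasma cell marker score as a covariate the log2 difference of Sec11c was −0.75 (limma adjusted p = 0.270) and that of Ssr4 −0.42 (limma adjusted p = 0.469). That of Edem1 went from −1.08 to −0.47, that of Creld2 from −0.38 to −0.21 and that of Edem2 from −0.19 to −0.12 (limma adjusted p = 0.659, 0.685 and 0.837). Others were larger with that covariate, Phgdh at −0.95 in place of −0.71 (limma adjusted p = 0.119), Psat1 at −0.37 in place of −0.31, Sec61b at −0.29 in place of −0.27 and Ssr1 at 1.25 in place of 0.99. With the neuronal marker score as a covariate Sec11c and Ssr4 were at −0.21 and 0.041 (limma adjusted p = 0.391 and 0.903). The plasma cell marker sums did not overlap between the groups, and with that score the standard error of Sec11c rose from 0.20 to 0.30. That fit therefore cannot tell plasma cells and group apart. The part of either cell type in the differences was not tested.

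**Figure D3:**
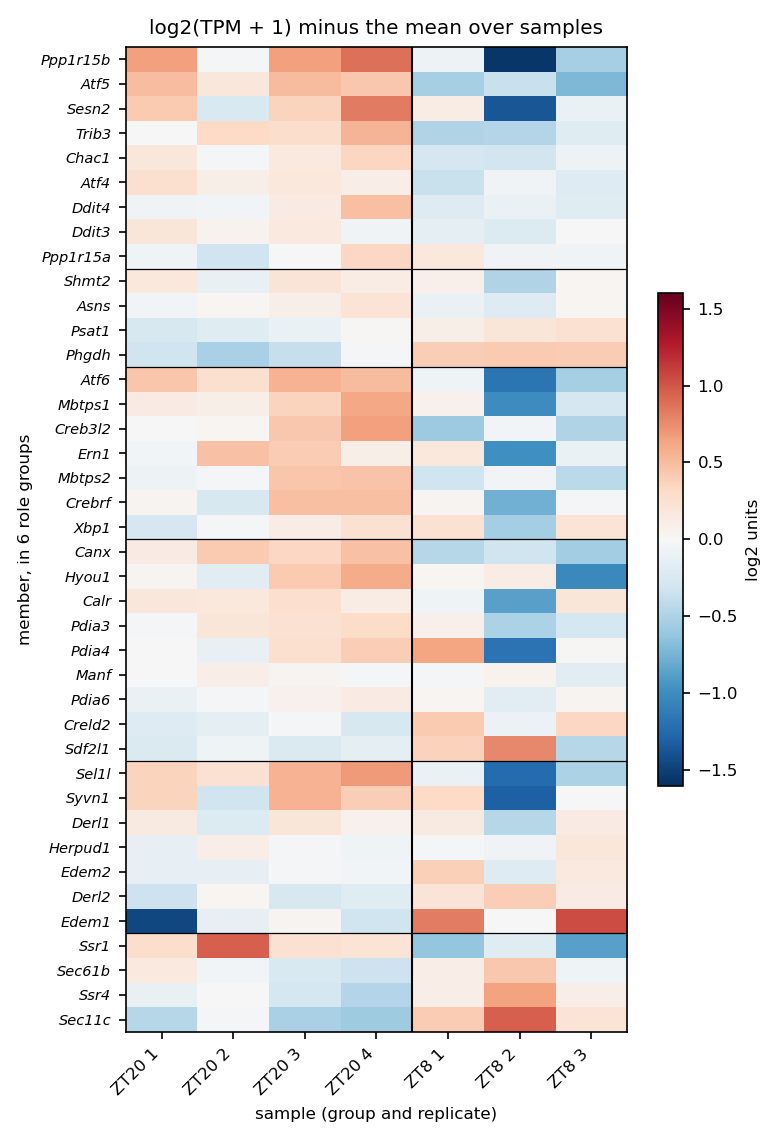
Log2(TPM + 1) of each member minus its mean over the 7 samples (colour, red above and blue below the mean), with samples in columns and the 40 members in rows by role. ZT8 replicate 2 holds most of the darkest blue cells and the lowest value of 19 of the 40 members.

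ZT8 replicate 2, the library with the fewest genes above 0 TPM, also had the lowest neuronal marker sum, 13725 TPM, and held the lowest value of 19 of 40 members and the highest of 6. ZT20 replicate 4 held the highest value of 16 members and the lowest of 4. The summed level of all 40 members nevertheless lay between 3383 and 3793 TPM in the 4 ZT20 samples and between 3439 and 3701 TPM in the 3 ZT8 samples. Without ZT8 replicate 2, 6 members were called higher and 4 lower. Atf4 joined the higher ones (0.44, limma adjusted p = 0.0295), Ppp1r15b left them (limma adjusted p = 0.0653), and Creld2 and Edem1 joined the lower ones. Members that did not pass also depended on that library. Without it the log2 difference of Syvn1 was 0.084 in place of 0.57, that of Calr 0.12 in place of 0.43, and that of Sesn2 0.34 in place of 0.80. Among the sensors and proteases it was 0.20 for Ern1, 0.18 for Crebrf and 0.40 for Mbtps1. Shmt2 was then at 0.040, Ssr4 at −0.32, Sec61b at −0.13 and Sdf2l1 at −0.13. Hyou1 depended on ZT8 replicate 3, without which its log2 difference was 0.15. With the neuronal marker score as a covariate the log2 differences of Ppp1r15b, Sel1l and Atf6 were 0.064, 0.27 and 0.30 (limma adjusted p = 0.929, 0.534 and 0.583), and those of Canx, Ssr1 and Atf5 were 0.97, 1.71 and 1.07, all 3 called.

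The log2 differences of the members tended to be more positive for longer transcripts. Across the 40 members, which are not independent replicates and share the same libraries, Spearman's rho between the log2 difference and the longest GENCODE M21 transcript was 0.458, against 0.410 across 14745 tested genes of known length. Split at their median length, 15 of the 20 longer and 13 of the 20 shorter members had a positive difference. The longest transcript was at least 5000 nt, a limit set after seeing the values, in 9 members. Of these 9, 8 had a positive difference and 4 were called higher (Ppp1r15b, Sel1l, Atf6 and Ssr1), and Edem1 was the exception in sign. Creb3l2, Crebrf and Ern1 of these 9 turned negative with the length and GC correction. The median log2 difference of the 9 was 0.70, and the median of all 2950 tested genes of that length was 0.62, with 31.9% called higher. Of the 31 shorter members, 20 had a positive difference. The median of the 31 was 0.17, and that of the 11795 shorter genes 0.14. With expression adjusted in every sample for transcript length and GC content, Atf5 (0.87, limma adjusted p = 0.0356) and Canx (0.44, limma adjusted p = 0.0468) were called higher. Phgdh, Sec11c, Edem1 and Derl2 were called lower. The 4 long members then had smaller differences, 0.71 for Ppp1r15b, 0.46 for Sel1l, 0.39 for Atf6 and 0.31 for Ssr1, with limma adjusted p-values of 0.193, 0.204, 0.351 and 0.402.

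**Figure D4:**
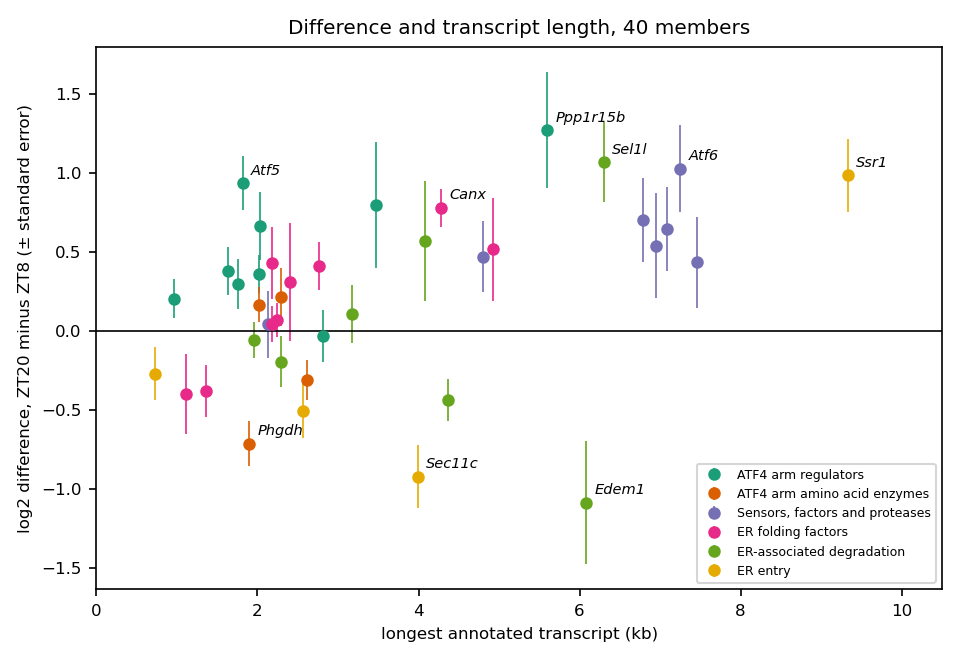
Log2 difference, ZT20 minus ZT8, with its limma standard error (vertical axis) against the longest annotated transcript in kb (horizontal axis) for the 40 members, coloured by role, with the called members and Edem1 named. Of the 9 members of at least 5000 nt (5 kb), 8 lie above 0, and Edem1 lies below it.

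How far each call rested on single libraries varied among the 8 called members. Canx passed in each of the 7 fits that left out 1 library. Of these 7 fits, Atf5 and Phgdh failed in the 1 without ZT20 replicate 3 (limma adjusted p = 0.0536 and 0.0590). Sec11c failed without ZT20 replicate 1, 3 or 4. Sel1l failed without any of these or ZT8 replicate 3, and Ssr1 without any of these 4 or ZT8 replicate 1. Atf6 failed without any of the 4 ZT20 libraries or ZT8 replicate 3. Ppp1r15b failed without ZT20 replicate 1, 3 or 4 or ZT8 replicate 2 or 3. Ssr1, Atf6 and Ppp1r15b also failed under median-ratio scaling and quantile normalization, and Phgdh, Sec11c, Sel1l, Atf6 and Ppp1r15b with the neuronal marker covariate (limma adjusted p = 0.0708 for Phgdh). The direction was the same for all 8 members in each of the 19 alternatives. Without ZT20 replicates 3 and 4, whose sex-linked transcripts went against the label, limma called 0 of the 14800 genes, with 2425 at an unadjusted p under 0.05. The 8 members then differed by −0.83 for Phgdh, −0.77 for Sec11c, 0.72 for Canx, 0.87 for Atf5, 0.91 for Sel1l, 0.94 for Atf6, 1.05 for Ppp1r15b and 1.18 for Ssr1 on the log2 scale. Their limma adjusted p-values ran from 0.137 to 0.366.

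**Figure D5:**
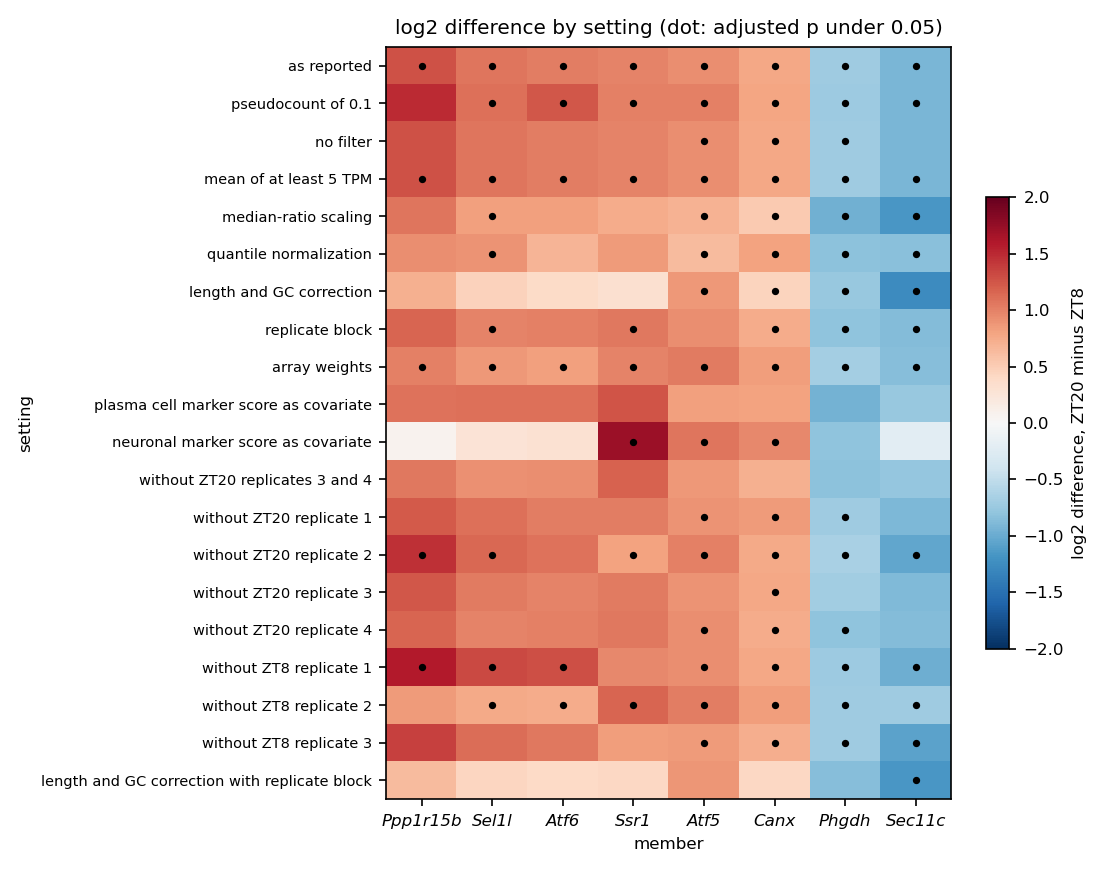
Log2 difference, ZT20 minus ZT8 (colour), of the 8 called members (columns) as reported and under 19 alternative settings (rows), with a dot where the limma adjusted p-value was under 0.05. Colours keep their sign down each column, while dots are missing for all 8 members with the plasma cell marker covariate and without ZT20 replicates 3 and 4.

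Further genes of the same pathways were taken from a list of 72 symbols found in the table, of which 66 were tested. Of these, 11 were called higher and 1 lower at ZT20 (limma adjusted p under 0.05), against 12.8% and 3.61% of all genes. A positive difference was found for 49 of 66 (74.2%), against 66.4% of all tested genes. The median log2 difference of the 66 was 0.30. Among 22 tested ATF4 targets 4 were higher: Slc7a1, a cationic amino acid transporter, by 1.83, the glycine transporter Slc6a9 by 1.20, the tRNA exporter Xpot by 1.00 and the seryl-tRNA synthetase Sars by 0.50 on the log2 scale. Slc7a1 was at 25.0 ± 4.08 TPM (SD, n = 4) against 6.75 ± 3.08 TPM (SD, n = 3) (3.55-fold, limma adjusted p = 0.00918). Slc6a9 was low, at 1.57 to 2.96 TPM at ZT20 and 0.0444 to 0.688 TPM at ZT8. Of 12 sensors and factors, Cebpg, a partner of ATF4 on DNA, and Nfe2l1 were higher, by 1.56 and 0.79. Cebpg was at 15.9, 33.7, 12.5 and 9.50 TPM across ZT20 replicates 1 to 4 and 3.92, 6.68 and 4.01 TPM across ZT8 replicates 1 to 3, with ZT20 replicate 2 far above the rest. Of 14 folding genes, the oxidases Ero1a and Ero1b, which supply disulfide bonds, were higher by 1.13 and 0.84. Of 9 degradation genes, Edem3 and the ubiquitin-conjugating enzyme Ube2j1 were higher by 1.72 and 0.62. Edem3 was at 9.24 ± 1.98 TPM (SD, n = 4) against 2.06 ± 0.138 TPM (SD, n = 3) (limma adjusted p = 0.00398). Of 9 entry genes, the translocon chaperone partner Sec63 was higher by 1.26 and the signal peptidase subunit Spcs1 lower, at −0.64 (limma adjusted p = 0.0368). Under median-ratio scaling the list had 6 higher and 8 lower, against 1088 and 1254 of all 14800 genes. With the length and GC correction it had 2 and 2, against 560 and 759 of 14745 genes.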

How the data were processed

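Transcript abundance was measured by RNA sequencing of total RNA in 7 samples. The deposited table holds TPM per gene and sample, corrected for transcript length and scaled by the authors to the same total in each sample. Per the submitters' processing notes the tools were FastQC 0.11.9, Trim Galore 0.6.6, Salmon 1.6.0 and DESeq2 1.34.0 and the build was GRCm39, and the annotation release is not given in the sources used here. All 7 columns were mapped to samples by title. Depth and counting error are unknown, and reads were not recovered from TPM.

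Values were analysed as log2(TPM + 1), with a pseudocount of 1 and a mean of at least 1 TPM as filter (14800 genes). Groups were compared with limma 3.58.1 (R 4.3.3; intensity trend, no covariate, two-sided, Benjamini-Hochberg over all tested genes). The fit was tested on simulated data. Length, GC content and overlaps came from GENCODE M21, matched by identifier (14745 of the tested genes, 99.6%, and all 40 members). Promoters came from RefSeq, GRCm38.p6. Figures used matplotlib 3.10.9.

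The members, role groups, lists and alternatives were chosen with earlier results of these data known. All 40 members are named. The value in every sample is given for those called, those without overlap, and Atf4, Ddit3, Xbp1 and Atf6. Of the other pathway genes those called are named. Alternatives were quantile normalization and median-ratio scaling, a pseudocount of 0.1, no filter or a filter at 5 TPM, the length and GC correction (loess, span 0.3), the replicate number as a block, array weights, plasma cell or neuronal marker scores as covariates, and leaving out libraries. Replicate numbers occur in both groups but mark no shared animal, litter or day in the labels.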

Additional observations from a re-analysis of the deposited data

Results flagged for a closer look

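Among the 40 members, 1 had a ZT20 sample whose gap to its nearest neighbour took an unusually large share of the range of the 4 samples, above Dixon's 95% critical value. The gene was Ssr1, whose ZT20 replicate 2 stood at 108 TPM while replicates 1, 3 and 4 lay between 64.5 and 67.9 TPM, so that the gap filled 0.923 of the range. Chance gives such a gap in about 1 of 20 groups. Without that library the log2 difference of Ssr1 was 0.81 (limma adjusted p = 0.0384).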

How the results depend on the processing

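TPM gives neither depth nor counting error, so low members such as Ern1 have an unknown precision. Alternatives are set against 2433 called genes, 6 members higher and 2 lower, a members' median of 0.31, and 11 and 1 other pathway genes. All 8 called members kept their direction in the 19 alternatives, and the cause was not tested for any of the changes that follow.

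Without a filter 1178 genes were called, members 2 and 1 and other pathway genes 6 and 0 (limma). With at least 5 TPM 4 other pathway genes were lower. Median-ratio scaling gave 3 and 7 members, 6 and 8 other pathway genes, a median of 0.061, 46.5% of 2342 called genes higher (78.1% as reported), and changed signs for Asns −0.083, Shmt2 −0.021, Ddit3 −0.042, Manf −0.18, Pdia6 −0.20, Derl1 −0.14 and Xbp1 −0.21. Quantile normalization gave 3 and 5 members, 2 other pathway genes lower, a median of 0.11, 55.7% higher and Shmt2 −0.032. Correcting for length and GC content left 1319 genes called (42.5% of them higher), with members 2 and 4, other pathway genes 2 and 2, a median of 0.033 and changed signs for Derl1 −0.098, Creb3l2 −0.018, Crebrf −0.12, Ern1 −0.12 and Xbp1 −0.019. Array weights gave 3899 genes, members 10 and 4, other pathway genes 17 and 7, and Pdia4 −0.050 and Xbp1 −0.11. The plasma cell marker covariate left 0 genes, members and other pathway genes called by limma (2436 genes and 8 members at an unadjusted p under 0.05), with Herpud1 0.042. The neuronal marker covariate gave 1022 genes, members 3 and 0, other pathway genes 5 and 3, a median of −0.057, and Asns −0.020, Shmt2 −0.30, Sesn2 −0.56, Sec61b 0.13, Ssr4 0.041, Calr −0.35, Pdia4 −0.95, Pdia6 −0.15, Sdf2l1 0.40, Derl1 −0.50, Syvn1 −0.82, Crebrf −0.40, Ern1 −0.13, Mbtps1 −0.094 and Xbp1 −0.60. Without ZT20 replicates 3 and 4 limma called 0 genes, members and other pathway genes (2425 genes and 7 members at an unadjusted p under 0.05), with Pdia6 −0.031 and Xbp1 −0.12.

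As a paired analysis, the replicate block gave 1174 genes, 3 members higher (Atf5, Atf6 and Ppp1r15b lost, limma adjusted p = 0.0603, 0.0909 and 0.0561), 7 other pathway genes higher, and Xbp1 −0.029. ZT20 replicate 4 has no partner, so it adds nothing to that difference. The deviations of same-numbered samples correlated across genes with r = −0.0141, 0.153 and 0.0830, and not every sample correlated best with its own number. These correlations cannot show whether such samples share anything beyond the number. The block with the length and GC correction, added after the data were seen, gave 467 genes, 0 members higher, 1 other pathway gene higher, a median of 0.0085, and Hyou1 −0.070, Pdia6 −0.027, Derl1 −0.089, Creb3l2 −0.10, Crebrf −0.20, Ern1 −0.034, Mbtps1 −0.013 and Xbp1 −0.090. Leaving out 1 replicate gave 624 to 3055 genes, 1 to 6 members higher, 0 to 4 lower, 3 to 13 other pathway genes higher, 0 to 2 lower, a median of 0.12 to 0.37, with 2, 1, 2 and 2 members higher without ZT20 replicate 1, 3 or 4 or ZT8 replicate 3 and 4 lower without ZT8 replicate 2, and Ppp1r15a −0.15 to 0.068, Pdia4 −0.19 to 0.72, Pdia6 −0.024 to 0.086, Derl1 −0.091 to 0.21, Herpud1 −0.098 to 0.022 and Xbp1 −0.21 to 0.18.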
